A study of Mus musculus with 2 samples.

Results

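The S100 genes encode small calcium-binding proteins, and 8 of them were described here in mouse liver sections: S100a1, S100a4, S100a6, S100a8, S100a9, S100a10, S100a11 and S100a13. They were found by symbol among the 19465 genes of the feature list. The set was chosen by earlier results of these same files, in which S100a8 and S100a9 stood out between the genotypes, so levels, ratios and the gathering of UMIs in few spots are given as a description with no test. Visium for fixed tissue was used, an assay in which pairs of probes report each transcript in spots that can each cover several cells, and each UMI (unique molecular identifier) counts 1 captured probe pair.

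There was 1 liver section of each genotype. AEG-1fl/fl mice carry floxed alleles of AEG-1 (metadherin, gene Mtdh), and AEG-1DMAC mice carry these alleles together with Cre from the Lyz2 locus, which deletes AEG-1 in myeloid cells (macrophages, monocytes and neutrophils) and leaves it in hepatocytes. Per the labels, both mice were 27 weeks old and had received a high fat/high sugar diet from 7 weeks of age for 20 weeks, whereas the study's text describes the sections as coming from littermates on a control diet, and this could not be settled here. The study's limits on UMIs and genes per spot were applied to the deposited spots, and 2140 of 2149 spots of AEG-1DMAC and 2540 of 2543 of AEG-1fl/fl were kept, with 45453286 and 50322850 UMIs and medians of 20930 and 18285 UMIs per spot. The study gives the deposited numbers of spots as those left after its limits, so the spots kept here are fewer than the study's. With 1 library per genotype, genotype, animal, section and library preparation cannot be told apart, and all intervals given are 95% intervals for counting error only. Mtdh itself gave 3014 UMIs in AEG-1DMAC and 3031 in AEG-1fl/fl, or 66.3 and 60.2 CPM (UMIs of the gene in a library scaled to 1000000 UMIs), and Lyz2, whose locus drives the Cre, gave 25 and 41 UMIs. The log2 ratio of Mtdh was 0.14 (0.07 to 0.21). The share of its UMIs that came from myeloid cells was not measured, so these sums cannot show the deletion in those cells. The libraries shared 1782 spot barcodes, which are positions of the array and not cells.

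S100 proteins form dimers that bind calcium and then target proteins. S100A8 and S100A9 pair to form calprotectin, the most abundant protein complex of the neutrophil cytosol, which is released in inflammation and acts on Toll-like receptor 4 and on the receptor RAGE. S100A10 is the exception in that it no longer responds to calcium and binds annexin A2, S100A11 binds annexin A1, S100A6 binds the calcyclin-binding protein, S100A4 binds nonmuscle myosin, and S100A13 takes part in the release of fibroblast growth factor 1. All 8 genes lie on chromosome 3 (GENCODE M21, GRCm38). S100a8, at chr3:90668978-90670035 on the plus strand, and S100a9, at chr3:90692632-90695721 on the minus strand, are 22.6 kb apart. S100a1 (chr3:90511034-90514392), S100a13 (chr3:90514435-90524581), S100a4 (chr3:90603771-90606045) and S100a6 (chr3:90612882-90624181) belong to the same cluster, and S100a11 (chr3:93520488-93526287) and S100a10 (chr3:93555080-93564643) lie 2.82 Mb beyond S100a9. The start of S100a1 faces that of S100a13, and the genes do not overlap.

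The 250 bases before the RefSeq start of S100a8 and S100a9 are shown because these genes differed together between the libraries. They were taken from RefSeq (GRCm38.p6, chr3:90668821-90669070 on the plus strand and chr3:90695722-90695971 on the minus strand) and read 5′ to 3′ on the strand of the gene. RefSeq starts S100a8 at 90669071, downstream of the GENCODE start given above, so that the last 93 bases of its window lie within the GENCODE gene, whereas for S100a9 both annotations start at 90695721. Capitals mark exact matches, on either strand, to 3 motifs chosen with the results known: AGGAAG (core of ETS factors such as PU.1), TATAAA (bound by the TATA-binding protein) and TTGCNNAA (C/EBP).
S100a8: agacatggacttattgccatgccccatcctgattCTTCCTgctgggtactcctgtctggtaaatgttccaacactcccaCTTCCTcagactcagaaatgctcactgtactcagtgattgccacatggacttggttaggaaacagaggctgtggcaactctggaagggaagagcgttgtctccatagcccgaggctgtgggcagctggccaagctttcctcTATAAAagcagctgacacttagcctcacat
S100a9: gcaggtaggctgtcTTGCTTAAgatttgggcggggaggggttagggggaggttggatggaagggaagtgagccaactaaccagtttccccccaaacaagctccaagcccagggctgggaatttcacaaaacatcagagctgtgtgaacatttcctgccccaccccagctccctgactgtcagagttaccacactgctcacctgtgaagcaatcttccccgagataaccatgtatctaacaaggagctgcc
The S100a8 window held TATAAA 30 bases before the RefSeq start, which is within the GENCODE gene, and the ETS core on the other strand at 216 and 171 bases, and the S100a9 window held the C/EBP match at 236 bases. No base was shared between matches. Among 32851 promoters of the same length, 12.4% held TATAAA, 29.5% AGGAAG and 9.56% TTGCNNAA on either strand. Of the other members in the table, S100a4 held the ETS core at 151 bases and TATAAA at 31 bases before its start, and S100a1, S100a6, S100a11 and S100a13 held none of the 3.

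S100a8 and S100a9 were each about 6-fold lower in the AEG-1DMAC section. S100a8 gave 40 UMIs in AEG-1DMAC and 264 in AEG-1fl/fl, that is 0.88 CPM (0.63 to 1.20) and 5.25 CPM (4.63 to 5.92). The ratio was 5.96-fold lower, a log2 ratio of AEG-1DMAC over AEG-1fl/fl of -2.58 (-3.09 to -2.09). S100a9 gave 73 and 501 UMIs, or 1.61 CPM (1.26 to 2.02) and 9.96 CPM (9.10 to 10.9), with a log2 ratio of -2.63 (-3.01 to -2.28) and a ratio of 6.20-fold lower. The intervals of the libraries did not overlap for either gene. They take each UMI as independent, however, and are too narrow for genes whose UMIs are gathered in few spots, as was found for both in AEG-1fl/fl (below). A mean of 1 CPM or more over both libraries was required for a gene to be tested, and of the 11178 such genes 14 had a log2 ratio at or below that of S100a9 and 16 at or below that of S100a8.

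All 8 members passed this limit, S100a4 closest to it with a mean of 1.12 CPM. A difference was called from a ratio of at least 1.5 with its interval on the same side of 1. By this rule 2 members were lower (S100a8 and S100a9) and 1 was higher (S100a10), whereas over all genes tested 3.9% were lower and 5.28% higher. At 2-fold the same 2 members were lower and 0 were higher, with 1.55% of all genes lower and 1.74% higher. The median log2 ratio of the members was -0.08, and that of all genes tested was 0.13.

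**Figure D1:**
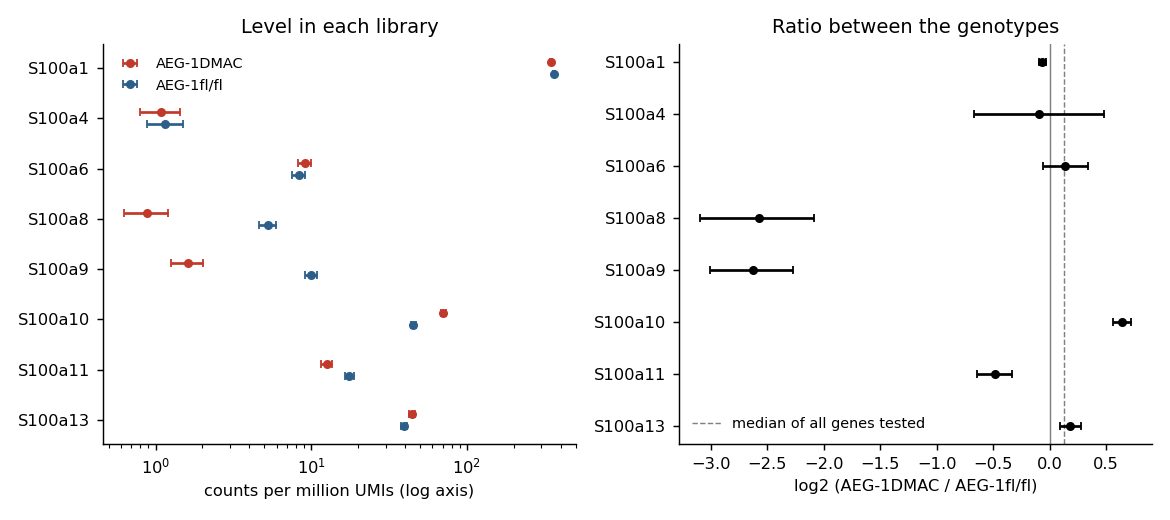
Left, CPM (log axis) of each member in the AEG-1DMAC (red) and AEG-1fl/fl (blue) library; right, log2 ratio between them, with the median of all genes tested dashed. Bars are 95% intervals for counting error in 1 library per genotype; S100a8 and S100a9 lie at -2.58 and -2.63, S100a10 at 0.64 and the other members between -0.49 and 0.18.

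The lower level went with fewer spots that held any UMI. S100a8 was seen in 37 of 2140 spots (1.73%, exact binomial interval 1.22 to 2.38) in AEG-1DMAC and in 136 of 2540 (5.35%, 4.51 to 6.30) in AEG-1fl/fl. S100a9 was seen in 58 spots (2.71%, 2.06 to 3.49) and in 265 spots (10.4%, 9.27 to 11.7). With every spot thinned to 10000 UMIs, which left out 26 and 106 shallower spots, the shares were 0.90% and 3.02% for S100a8 and 1.36% and 6.01% for S100a9. The spots with exactly 1 UMI of S100a9 made up 2.34% of the AEG-1DMAC section and 8.07% of the AEG-1fl/fl section, and those with exactly 1 UMI of S100a8 made up 1.68% and 4.33%. Genes of retina, pituitary, brain and skeletal muscle were listed as a gauge of probe background. Of 12 such genes, 7 were at 0 in both libraries and 10 had fewer than 10 UMIs in each, the exceptions being Gfap with 18 and 26 and Gnat1 with 278 and 414 UMIs. Gnat1 was at 6.12 CPM in AEG-1DMAC and 8.23 CPM in AEG-1fl/fl, and was seen in 12.1% and 14.8% of spots. The listed genes thus reached from 0 UMIs to this level, and the gauge sets no background level for S100a8 and S100a9. Whether their single UMIs include probe background was not tested.

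The UMIs of S100a8 and S100a9 were gathered in few spots of the AEG-1fl/fl section. Gathering was measured by a dispersion index, which is close to 1 where the UMIs of a gene are spread over spots in proportion to their depth. The index was 12.4 for S100a8 and 14.7 for S100a9 in AEG-1fl/fl, the 2nd highest and the highest of 5354 genes with 132 to 1002 UMIs in that library, whose median was 1.01 and 95th percentile 1.10. In AEG-1DMAC the index was 1.39 and 1.62, rank 77 and rank 39 from the top of 2512 genes with 20 to 146 UMIs, with a 95th percentile of 1.26. An index of at least 2 was reached by 1 member in AEG-1DMAC (S100a6, 2.69 in that library and 2.07 in AEG-1fl/fl) and by 3 in AEG-1fl/fl (S100a6, S100a8 and S100a9), against 1.32% and 0.859% of all genes tested. In AEG-1fl/fl, S100a8 was found in 136 spots where an even spread would give 249, and S100a9 in 265 where it would give 449. The corresponding values in AEG-1DMAC were 37 against 39.6 and 58 against 71.7.

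In AEG-1fl/fl the 26 spots with the most UMIs of the gene, 1% of all spots, held 154 of the 264 S100a8 UMIs (58.3%, 52.1 to 64.3) and 228 of the 501 S100a9 UMIs (45.5%, 41.1 to 49.98). In AEG-1DMAC the top 22 spots held 25 of 40 (62.5%, 45.8 to 77.3) and 37 of 73 (50.7%, 38.7 to 62.6). The AEG-1DMAC shares say little of gathering, since 36 of the 37 spots with S100a8 held a single UMI and the top 22 spots of so rare a gene must hold a large share. S100a4, with 49 and 58 UMIs and an index of 1.17 and 1.22, reached 55.1% and 53.4% in the same way.

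**Figure D2:**
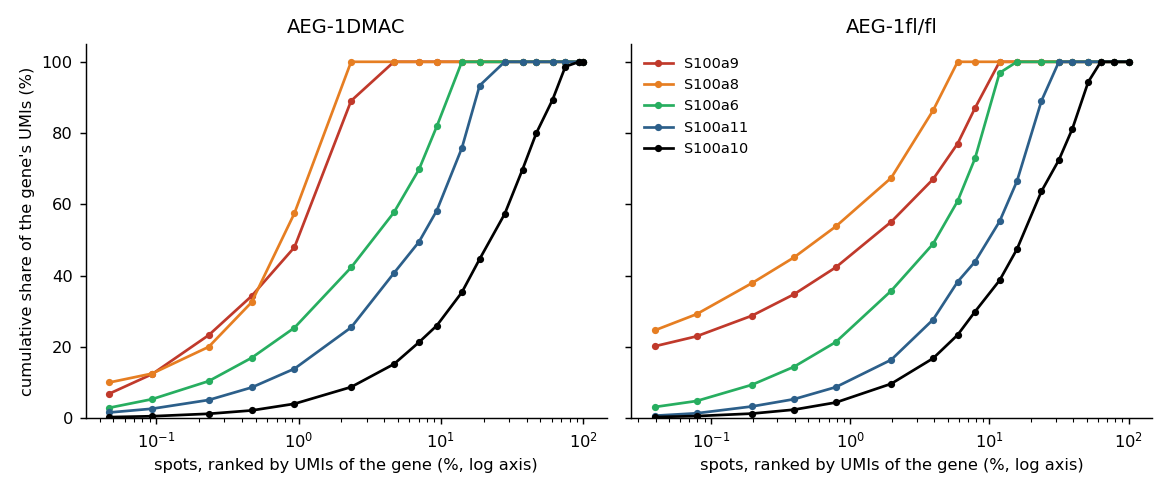
Cumulative share of a gene's UMIs (%) against the share of spots (%, log axis), with spots ranked by UMIs of that gene, in each library for S100a8, S100a9, S100a6, S100a11 and S100a10. In AEG-1fl/fl the curves of S100a8 and S100a9 start at 24.6% and 20.2% of UMIs in 1 spot, whereas in AEG-1DMAC they start at 10% and 6.85%, where 1 spot holds 4 and 5 UMIs.

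A single AEG-1fl/fl spot stood apart. It held 65 UMIs of S100a8 and 101 of S100a9, 166 of the 765 UMIs of the pair in that section, at a depth of 32663 UMIs. The next spots of that section held 25, 22, 15, 12, 11, 11, 10, 8 and 7 UMIs of the pair, while in AEG-1DMAC the 4 highest spots held 5 each and the following 6 held 2. Spots with 5 or more UMIs of the pair numbered 18 in AEG-1fl/fl and 4 in AEG-1DMAC, and they held 44.1% and 17.7% of the UMIs of the pair. Without the top spot of each library for the gene, S100a8 was at 0.79 CPM in AEG-1DMAC and 3.96 CPM in AEG-1fl/fl (log2 ratio -2.32, -2.87 to -1.80), and S100a9 was at 1.497 and 7.95 CPM (-2.41, -2.80 to -2.04). Without the top 1% of spots, the log2 ratios were -2.73 (15 and 110 UMIs, -3.62 to -1.95) and -2.78 (36 and 273 UMIs, -3.32 to -2.27). In AEG-1DMAC that top 1% was made up mostly of spots with a single UMI, so this cut does not separate gathered from scattered UMIs. Without the spots that held 5 or more UMIs of the gene, a limit set after seeing the data, S100a8 had 40 and 154 UMIs (log2 ratio -1.80, -2.34 to -1.29) and S100a9 had 68 and 317 (-2.08, -2.48 to -1.70), which is a smaller difference than over all spots. The index in AEG-1fl/fl was 3.62 for S100a8 and 2.97 for S100a9 without the top spot.

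**Figure D3:**
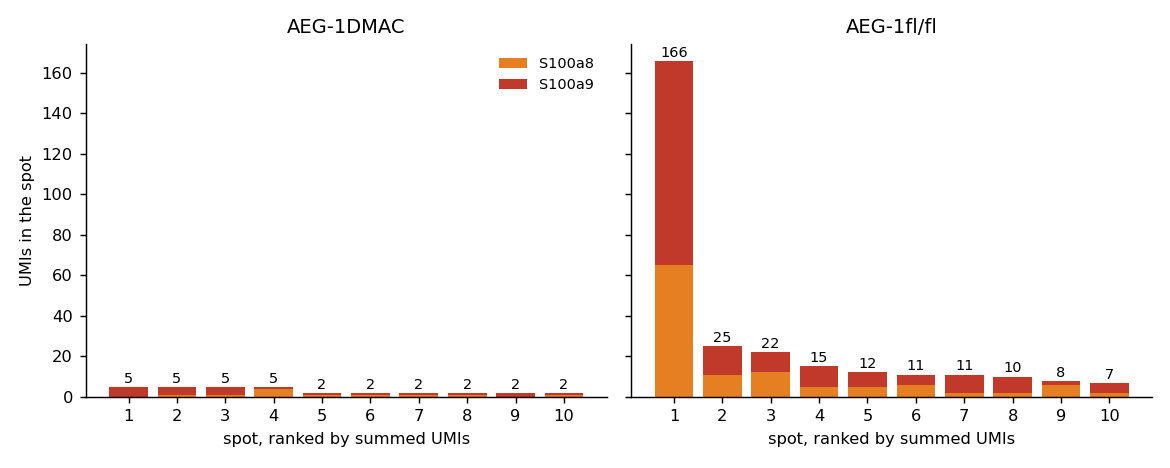
UMIs of S100a8 (orange) and S100a9 (dark red) in the 10 spots of each library with the most UMIs of both, with the sum above each bar. The AEG-1fl/fl spots run from 166 to 7 UMIs and the AEG-1DMAC spots from 5 to 2.

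S100a8 and S100a9 UMIs met in the same spots. In AEG-1fl/fl, 51 spots held both, which was 37.5% of the spots with S100a8 and 19.2% of those with S100a9, while S100a9 was present in 10.4% of all spots. In AEG-1DMAC, 10 spots held both, 27.0% of those with S100a8 and 17.2% of those with S100a9, while S100a9 was present in 2.71% of all spots. Over the spots of a section, which share 1 library and differ in depth, Pearson's r of the raw UMIs was 0.96 in AEG-1fl/fl and 0.22 in AEG-1DMAC. Without the top spot of each library it was 0.66 and 0.25. On the scale log2(UMIs per 10000 + 1), genes averaging 1 CPM or more were ranked by the lower r of the 2 libraries. By this rank S100a8 was the gene most like S100a9, and S100a9 the gene most like S100a8 (r of 0.55 in AEG-1fl/fl and 0.23 in AEG-1DMAC over 2540 and 2140 spots). A gene like the pair in 1 library only cannot rank high here. The neutrophil granule genes Ngp and Camp, with means of 0.96 and 0.46 CPM, did not enter the rank. The next 4 genes by this rank had r below 0.09 in both libraries, among them Pclaf for S100a8 and Csf3r, the receptor of granulocyte colony-stimulating factor, for S100a9 (0.05 and 0.06), which in counts this sparse is no finding.

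Other neutrophil markers differed in parts between the sections. Of the 11 markers listed, Ngp, Camp and Ltf, which encode proteins of neutrophil granules made in immature cells, gave 97, 46 and 20 UMIs in AEG-1fl/fl and 0, 0 and 2 in AEG-1DMAC. With counts of 0 only the upper ends of the log2 ratio intervals can be given, -4.54 for Ngp and -3.44 for Camp, and the log2 ratio of Ltf was -3.18 (-6.32 to -1.13). Without the spot of each library with the most S100a8 and S100a9, the upper ends were -3.53 for Ngp and -2.16 for Camp. The single spot described above held 48 of the 97 Ngp, 26 of the 46 Camp and 10 of the 20 Ltf UMIs, and the other AEG-1fl/fl spots held 49, 20 and 10. Retnlg, a marker of circulating neutrophils, gave 9 and 29 UMIs (log2 ratio -1.54, -2.81 to -0.42), and Csf3r gave 98 and 143 (-0.40, -0.78 to -0.02). Cxcr2, the chemokine receptor of mature neutrophils, gave 10 and 9 UMIs, and Mmp9 gave 43 and 36, with intervals that include no difference. Ly6g, Mpo and Elane were at 0 in AEG-1DMAC and at 3, 1 and 1 UMIs in AEG-1fl/fl.

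Summed over the 11 markers the level was 25.8 CPM in AEG-1DMAC and 24.3 CPM in AEG-1fl/fl, but Srgn, which other blood cells and endothelium also express, made up 1012 and 838 of the 1174 and 1223 UMIs. Without Srgn the log2 ratio of the sum was -1.10 (-1.38 to -0.83), with 162 and 385 UMIs. Of these, Ngp, Camp and Ltf gave 97, 46 and 20 in AEG-1fl/fl, and 48, 26 and 10 of them lay in the single top spot. Cxcr2 gave 10 and 9 UMIs (log2 ratio 0.30, -1.15 to 1.77), too few to tell whether it followed the sum. Mmp9 gave 43 and 36 UMIs (0.40, -0.27 to 1.08), an interval that lies above the -1.10 of the sum. The sum therefore does not stand for all neutrophil markers. Of the 11, 2 passed the limit of 1 CPM, and 0 were called in either direction. Fewer neutrophils and less S100a8 and S100a9 RNA per neutrophil cannot be told apart in sums of this kind, and the part of the neutrophil markers in the ratio was not tested. The markers of monocytes and macrophages summed to 83.1 and 80.3 CPM (7 of 8 markers listed in the files, log2 ratio 0.05), with 0 of 4 testable markers called.

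The top spot was also marked by other genes, which were named after their values were seen. Beside the pair and the granule genes, the genes with at least 5 UMIs and the largest excess over the other spots of the section were Lcn2, a further granule protein, with 8 UMIs, the histone genes Hist1h2bb, Hist1h3c and Hist1h3b with 10, 7 and 6, which are transcribed in dividing cells, Ncf1, a subunit of the phagocyte oxidase, with 5, Arhgdib with 9 and the pericentral gene Oat with 72. These 7 genes stood at 4.83 to 13.4 times the count expected from the other spots, with 0.5 added to both counts. The spot lay at the 91.8th percentile of the zone index explained below, towards the pericentral end, and the spots that followed it in UMIs of the pair lay from the 4.61st to the 94.0th percentile.

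S100a10 was the one member that was higher in AEG-1DMAC. It gave 3212 UMIs (70.7 CPM, 68.2 to 73.2) in AEG-1DMAC and 2282 UMIs (45.3 CPM, 43.5 to 47.2) in AEG-1fl/fl, a 1.56-fold higher level with a log2 ratio of 0.64 (0.56 to 0.72). It was detected in 76.8% and 56.3% of spots, or in 51.0% and 36.3% at 10000 UMIs. The call is lost when the libraries are scaled by TMM factors or without the 50 most abundant genes, which shift the median of all genes from 0.13 to 0.00 and -0.02. The log2 ratio was then 0.52 and 0.50, under the 0.58 that a 1.5-fold ratio requires. The dispersion index of S100a10 was 0.997 and 1.11, and its likest genes reached r of at most 0.08. Anxa2, its binding partner, gave 25.3 CPM in AEG-1DMAC and 31.4 CPM in AEG-1fl/fl (log2 ratio -0.31, -0.42 to -0.20). This was 1.24-fold lower and not called, so the ratios of this pair had opposite signs but only S100a10 met the rule.

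S100a11 was 1.40-fold lower in AEG-1DMAC, short of the 1.5-fold rule, with 570 UMIs (12.5 CPM, 11.5 to 13.6) against 886 UMIs (17.6 CPM, 16.5 to 18.8) and a log2 ratio of -0.49 (-0.64 to -0.34). It was seen in 20.5% and 27.4% of spots, or in 11.1% and 15.7% at 10000 UMIs. Scaled by TMM factors or without the 50 most abundant genes its log2 ratio was -0.61 and -0.63, past the rule. Anxa1, its annexin partner, was lower by the rule, at 5.90 and 8.88 CPM (log2 ratio -0.59, -0.82 to -0.37). For S100a6 the libraries gave 414 and 417 UMIs, 9.11 CPM (8.25 to 10.0) and 8.29 CPM (7.51 to 9.12), and the interval of the log2 ratio of 0.14 reached from -0.06 to 0.34, with values of 0.01 and -0.01 under these 2 scalings. S100a4 gave 49 and 58 UMIs (log2 ratio -0.10, -0.68 to 0.48), so that at this depth a 1.5-fold difference in either direction lies near or within its interval.

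S100a1 was seen in nearly every spot, 99.3% in AEG-1DMAC and 99.6% in AEG-1fl/fl, with 344 and 361 CPM and a log2 ratio of -0.07 (-0.10 to -0.04). Its dispersion index was 1.09 and 1.04, and a spot held at most 23 and 26 UMIs. S100a13 gave 44.4 and 39.2 CPM (log2 ratio 0.18, 0.09 to 0.27) and was seen in 59.9% and 51.5% of spots. Under TMM factors the ratio of S100a13 was 0.06. Levels of different genes are not compared here, since each gene is read by its own probes.

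Of the 9 other S100 genes in the feature list, S100a16 was the only one above the limit, with 1818 and 2004 UMIs (log2 ratio 0.01, -0.09 to 0.10). S100a2, S100a3 and S100a5 were at 0 in both libraries. S100a7a, S100a14, S100b, S100g and S100z ranged from 0 to 11 UMIs.

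Of 14 partners and receptors of S100 proteins, 13 passed the limit, with a median log2 ratio of -0.01. Of these, 1 was called higher and 2 lower, against 5.28% and 3.9% of all genes tested. Counts this small do not set the partners apart from other genes. Tlr4 (115 and 134 UMIs, log2 ratio -0.07), its co-receptor Ly96 (-0.01) and the adaptor Myd88 (0.18), through which calprotectin signals, were not called. Ager, which encodes RAGE, gave 25 UMIs in each library. The fatty acid receptor Cd36, which has also been described to bind S100 proteins, was lower, at 57.0 CPM in AEG-1DMAC against 88.4 CPM in AEG-1fl/fl (log2 ratio -0.63, -0.70 to -0.56). Fgf1, the cargo of S100a13, was higher, at 116 and 75.0 CPM (0.63, 0.57 to 0.69), and relative to the median of all genes its log2 ratio was 0.50, short of the rule. Cacybp (0.08), Myh9 (-0.07), Bsg (-0.13), Ahnak (0.07), Anxa6 (0.11) and Sugt1 (0.03) were not called.

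To see where in the section the members lay, spots in the top 5% for each of 13 marker lists, 107 spots in AEG-1DMAC and 127 in AEG-1fl/fl, were set against all other spots of the same section. Of 104 combinations of member and list, 20 were higher in the listed spots in both libraries with intervals above 0, and 0 were lower, against 4.2% and 1.35% over all genes tested. All 20 belonged to 4 members, with 7 each for S100a6 and S100a11, 5 for S100a4 and 1 for S100a9.

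S100a6, S100a11 and S100a4 followed the spots rich in vessel wall, bile duct and antigen presentation markers. S100a6 was at 71.7 CPM in the AEG-1DMAC spots rich in vessel wall markers (Acta2, Tagln, Myh11, Mgp, Eln) against 5.64 CPM elsewhere (log2 ratio 3.67, 3.38 to 3.95), and at 46.3 against 6.37 CPM in AEG-1fl/fl (2.86, 2.54 to 3.18). These spots held 41.3% and 26.9% of its UMIs. In spots rich in cholangiocyte markers S100a6 had log2 ratios of 3.24 and 2.91, and in those rich in MHC class II genes 3.45 and 2.95. S100a11 had values of 2.40 and 1.58 for vessel wall, 2.31 and 1.52 for cholangiocyte, and 2.53 and 1.63 for MHC class II spots. S100a4, known as a marker of fibroblasts and myeloid cells, had values of 3.51 and 3.51 in MHC class II spots, where 18 of its 49 and 21 of its 58 UMIs lay. All 3 members were also higher in the T cell and mesothelium spots of both libraries, and S100a6 and S100a11 in the neutrophil and the monocyte and macrophage spots. In AEG-1DMAC 82 of the 107 mesothelium spots held a UMI of that list, and the rest were ties at 0. The Kupffer cell list gave no such value for these members: 0 and 3 UMIs of S100a4 lay in those spots, and S100a6 was at 5.77 CPM against 9.27 CPM elsewhere in AEG-1DMAC (-0.68, -1.65 to 0.14) and at 6.54 against 8.36 CPM in AEG-1fl/fl (-0.35, -1.27 to 0.44).

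In AEG-1fl/fl, S100a8 and S100a9 were highest in the spots rich in neutrophil markers, at 62.3 against 2.74 CPM (log2 ratio 4.51, 4.15 to 4.87) and at 96.3 against 6.16 CPM (3.97, 3.70 to 4.23). Without the single top spot the log2 ratios were 3.56 and 2.98. In AEG-1DMAC the spots in the top 5% for the neutrophil list held 17 of the 73 S100a9 UMIs (8.11 against 1.29 CPM, 2.65, 1.77 to 3.46) and 4 of the 40 S100a8 UMIs (1.91 against 0.83 CPM, 1.20, -0.75 to 2.68). Srgn, which is not particular to neutrophils, gave 1012 of the 1174 UMIs of this list in AEG-1DMAC and 838 of 1223 in AEG-1fl/fl. Spots of this list can therefore be spots rich in Srgn, but the markers that placed each spot there were not read. In the single top spot of AEG-1fl/fl, 1 of the 86 UMIs of the list was of Srgn. The one list with an interval above 0 for S100a8 in AEG-1DMAC was that of sinusoidal endothelium, with 6 of the 40 UMIs (3.16 against 0.78 CPM, 2.02, 0.47 to 3.28), and for S100a9 the vessel wall list gave 1.52 (0.39 to 2.49), the red cell list 1.82 (0.80 to 2.73) and the Kupffer cell list 1.36 (0.09 to 2.42). None of these had an interval above 0 in AEG-1fl/fl. Spots rich in monocyte and macrophage markers held 7 and 13 of the S100a8 and S100a9 UMIs of AEG-1fl/fl, with log2 ratios of -0.60 and -0.63 and intervals that include 0. S100a1, S100a10 and S100a13 stayed between -0.37 and 0.45 over all lists in both libraries.

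**Figure D4:**
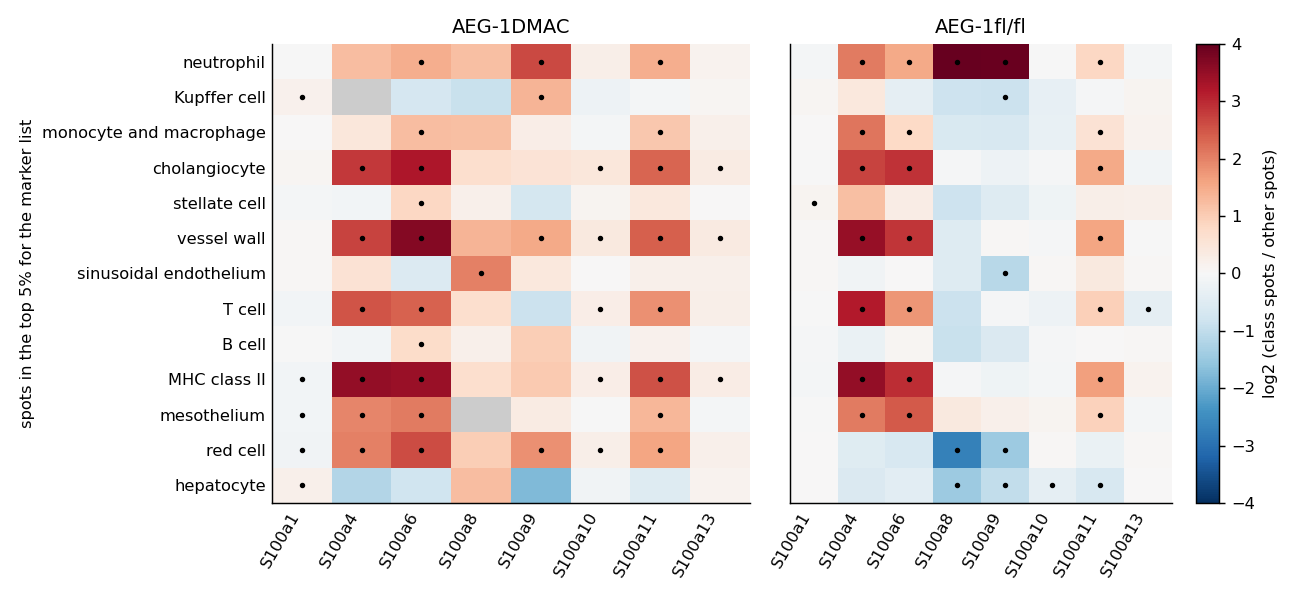
Log2 ratio of the CPM of each member in the spots in the top 5% for a marker list over that in all other spots, by library; dots mark intervals for counting error that exclude 0 and grey marks 0 UMIs in the listed spots. S100a4, S100a6 and S100a11 are high in vessel wall, cholangiocyte and MHC class II spots of both libraries, and S100a8 and S100a9 in neutrophil spots of AEG-1fl/fl. Most UMIs of the neutrophil list are of Srgn.

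Likeness over spots gave the same groups for the less sparse members. The genes most like S100a6, by the lower of the r values of the 2 libraries, were Mgp (0.37), Gsn (0.36), Igfbp5 (0.34), Col1a1 (0.34) and Spp1 (0.33). Those most like S100a11 were Mgp (0.25), Eln (0.23), Acta2 (0.21), Spp1 (0.20) and Svep1 (0.20), and S100a6 and S100a11 had r of 0.32 in AEG-1DMAC and 0.19 in AEG-1fl/fl with each other. S100a6 was the gene most like S100a4 (0.16). The spots of a section share a library and differ in depth. For S100a1, whose likest genes were the hepatocyte genes Fga, Ttr, Apoa1, Sfxn1 and Ahsg, the values were 0.08 to 0.09, and for S100a10 and S100a13 the values were 0.05 to 0.07.

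Each section was then divided into 3 equal parts along an index of the pericentral (zone 3) over the periportal (zone 1) hepatocyte markers, and the members were read in each part. S100a8 was lower in AEG-1DMAC in all 3 parts, with 15 and 60 UMIs in the zone 1 part (log2 ratio -1.87, -2.79 to -1.03), 17 and 95 in the middle part (-2.30, -3.14 to -1.55) and 8 and 109 in the zone 3 part (-3.65, -4.89 to -2.62). S100a9 had 26 and 113 UMIs in the zone 1 part (-1.99, -2.66 to -1.36), 37 and 155 in the middle part (-1.88, -2.44 to -1.36) and 10 and 233 in the zone 3 part (-4.42, -5.50 to -3.51). Without the top spot of each library, the zone 3 part gave -2.34 (-3.64 to -1.24) for S100a8 and -3.60 (-4.70 to -2.68) for S100a9. The S100a8 ratios of the 3 parts then differed by less than their intervals. For S100a9 the interval of the zone 3 part ended at -2.68 and that of the zone 1 part began at -2.66, so they nearly touched. The zone 3 part held 10 AEG-1DMAC UMIs of S100a9. These intervals take UMIs as independent, while the dispersion index of S100a9 in AEG-1fl/fl was 2.97 without the top spot, so a difference between the parts is not established.

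Within a section, S100a6 was lower in the zone 3 than in the zone 1 part in both libraries (log2 ratio -1.18, -1.58 to -0.80 in AEG-1DMAC and -0.62, -0.98 to -0.26 in AEG-1fl/fl). It was the one member of which this held, against 5.57% of all genes tested, and 0 members were higher in the zone 3 part in both, against 13.3%. In AEG-1fl/fl the zone 3 over zone 1 ratio of S100a6 was -0.09 when the outer 10% of spots at each end were compared. S100a11 was at 15.97, 12.4 and 9.20 CPM from the zone 1 to the zone 3 part in AEG-1DMAC, and at 18.1, 16.9 and 17.8 CPM in AEG-1fl/fl, so its log2 ratio between the genotypes went from -0.18 (-0.43 to 0.07) to -0.44 (-0.71 to -0.18) and -0.95 (-1.26 to -0.66). S100a10 was higher in AEG-1DMAC in each part, at 0.74, 0.67 and 0.52, with no interval reaching below 0.39. S100a1 went from 0.02 in the zone 1 part to -0.18 in the zone 3 part, and S100a13 from 0.32 to 0.05. The zone 3 markers themselves were at 8543 CPM in AEG-1DMAC and 3498 CPM in AEG-1fl/fl, and their part in these values was not tested.

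**Figure D5:**
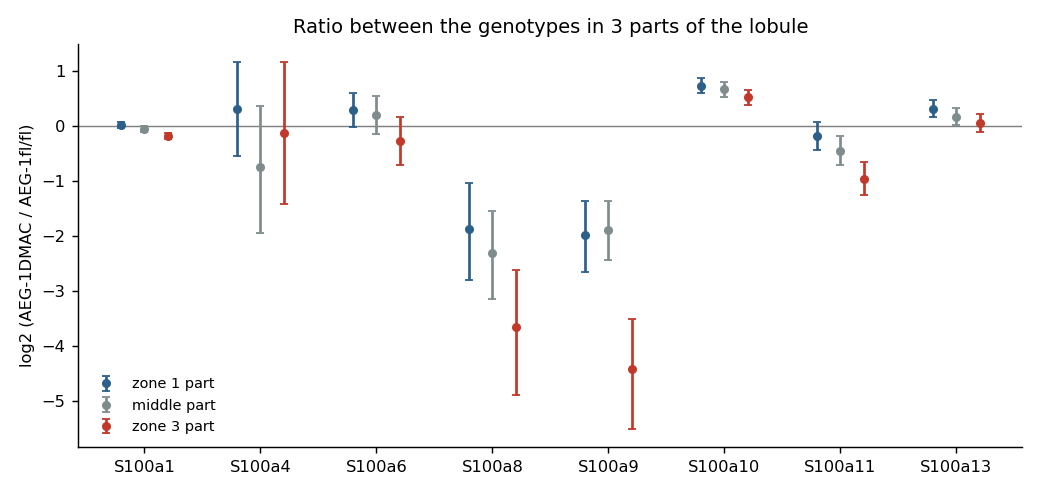
Log2 ratio between the genotypes of each member in 3 equal parts of the section along the zone index, with 95% intervals for counting error, 1 library per genotype. S100a8 and S100a9 lie below 0 in all 3 parts and lowest in the zone 3 part (-3.65 and -4.42), where 1 AEG-1fl/fl spot held 65 and 101 of their UMIs, and S100a10 lies above 0 in all 3.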

How the data were processed

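Spatial transcriptomics was performed by the authors on 1 liver section per genotype with Visium probes for fixed tissue. Per the labels, reads were processed with Space Ranger 2.0.1 and Seurat 4.3.0 on mm10, and the deposited matrices hold raw UMI counts per gene and spot. Spots above 50000 counts, or with under 100 or over 7000 genes, were removed. These are the limits that the study states, but they took further spots from the deposited ones, which the study counts as already filtered. Spot positions were not used. Counts of a gene were summed over spots and divided by the library sum (CPM). Ratios were given exact intervals from the binomial distribution conditional on both counts, levels exact Poisson intervals and shares exact Clopper-Pearson intervals, which cover counting error only. No test was made, since each genotype had 1 library. Genes averaging 1 CPM or more entered the ratios, which were called from 1.5-fold. Shares of spots were also computed for spots thinned to 10000 UMIs. Genes named are the 8 members, the other S100 genes, 14 partners, 12 background genes, the marker lists and, per member, the 5 genes with the highest lower r of both libraries. The genes of the top spot were named after their values were seen. The members and lists were chosen with earlier results of these data known. Settings that were varied were scaling, spots, depth, thresholds and left-out spots. The code was tested on simulated data. Python 3.11.15, scipy 1.17.1 and edgeR 4.0.16 (TMM factors) were used.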

Additional observations from a re-analysis of the deposited data

Results flagged for a closer look

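S100a9 differed in direction between the sections in 3 contrasts of spots within a section; each rests on 1 library per genotype and the differences were not tested. In spots rich in red cell markers (Hba-a2, Hbb-bs, Hbb-bt, Alas2) S100a9 had a log2 ratio over the other spots of 1.82 in AEG-1DMAC, with 12 of its 73 UMIs there, and of -1.45 in AEG-1fl/fl, with 9 of its 501. Red cell markers were at 3897 CPM in the 16 AEG-1DMAC spots with 2 or more UMIs of S100a8 and S100a9 against 910 CPM in the 2055 spots with 0, but the medians per spot were 440 and 394 CPM, so a few spots with much red cell RNA carry that ratio. In spots rich in Kupffer cell markers the log2 ratio of S100a9 was 1.36 in AEG-1DMAC and -0.87 in AEG-1fl/fl. Without the top spot of each library these were -0.05 and -0.54, so the first rests on 1 spot with 5 UMIs. The zone 3 part over the zone 1 part gave -1.37 in AEG-1DMAC and 1.06 in AEG-1fl/fl, and without the top spot of AEG-1fl/fl the latter was 0.25 (-0.13 to 0.62).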

How the results depend on the processing

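The log2 ratios of S100a8 and S100a9 kept their sign and their 2-fold call under each alternative run, with ranges of -2.73 to -1.80 and -2.78 to -2.08. The weakest values, -1.80 and -2.08, came from leaving out spots with 5 or more UMIs of the gene, and -1.95 and -2.25 from spots with 10000 to 30000 UMIs, which leaves out the deep top spot of AEG-1fl/fl. The number of members called higher went from 1 to 0 with TMM factors, without the 50 most abundant genes, and at 2-fold, and under both scalings S100a11 was called lower, 3 members in place of 2. Of 30 alternative values for the other members' ratios, 24 stayed within the interval of the main value and 6 moved, all by scaling. In the top 5% of spots lay 100% of the S100a8 and 100% of the S100a9 UMIs of AEG-1DMAC, and 96.6% and 72.5% in AEG-1fl/fl. Thinned to 5000 UMIs, the shares of spots with S100a8 were 0.46% and 1.68% and with S100a9 0.75% and 3.34%. With at least 2 UMIs and no thinning they were 0.0467% and 1.02% for S100a8 and 0.37% and 2.36% for S100a9. The zone 3 over zone 1 ratio of S100a4 in AEG-1DMAC turned from -1.29 to 0.73 between the outer 10% of spots, and that of S100a8 in AEG-1fl/fl from 0.88 to -0.43 without the top spot, an alternative chosen after seeing the data, as were those without Srgn and without spots of 5 or more UMIs. No paired analysis was possible because each genotype has 1 library. Depth limits S100a4 and the AEG-1DMAC values of S100a8 and S100a9 most, which rest on 49, 40 and 73 UMIs.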

Other observations

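Other cell type lists also differed between the sections. All 4 T cell markers were called higher in AEG-1DMAC (summed level 14.1 against 7.15 CPM), as were all 4 MHC class II genes (787 against 388 CPM). By contrast, 4 of 4 testable B cell markers were called lower (29.5 against 48.2 CPM). Over all genes tested 5.28% were called higher and 3.9% lower. With 1 section per genotype, these values describe the sections and not the genotypes. Mesothelial markers summed to 2.13 CPM in AEG-1DMAC and 5.07 CPM in AEG-1fl/fl. In the spots rich in these T cell and MHC class II markers S100a6, S100a11 and S100a4 were high in both sections, while their levels over the whole section were not called. Spots removed by the filter, 9 in AEG-1DMAC and 3 in AEG-1fl/fl, held 0 UMIs of S100a9 and 0 and 1 of S100a8.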
